A study of Homo sapiens with 6 samples.

Results

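The genes described here encode 10 histone acetyltransferases, the enzymes that place acetyl groups on histone lysines. They are EP300 and CREBBP, KAT2A and KAT2B, KAT5, KAT6A, KAT6B, KAT7 and KAT8, and HAT1. The members were chosen by symbol, and all 10 were found among the 36601 genes of the deposited matrices. All libraries came from SK-N-BE(2)-C, a human neuroblastoma cell line that is long established, profiled with Seq-Well S3, which captures single cells with barcoded beads in microwells. The libraries formed 3 groups of 2: DMSO (the solvent), TSA (as usually written for trichostatin A, which inhibits histone deacetylases) and E6R. The title names an inhibitor of the HDAC complex that is not enzymatic, and neither doses nor treatment times nor what E6R is are stated in the labels. All groups share 1 cell line, and the labels do not say that the libraries of a group came from separate cultures, so p-values measure only the spread between these libraries, which may be technical.

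Histone acetyltransferases take acetyl groups from acetyl-CoA and oppose the histone deacetylases that TSA inhibits. EP300 and CREBBP are large paralogous coactivators that acetylate histone H3 at enhancers. KAT2A and KAT2B are the alternative catalytic subunits of the SAGA and ATAC coactivator complexes. KAT5, KAT6A, KAT6B, KAT7 and KAT8 form the MYST family, which works in the NuA4/TIP60, MOZ/MORF, HBO1 and MSL or NSL complexes. HAT1 is the type B enzyme that acetylates newly made histone H4 before it is laid down on DNA. In neuroblastoma of the adrenergic type EP300 serves the enhancers that hold the cell's identity.

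In these cells CREBBP fell to 0.43 and KAT2A to 0.40 of their DMSO levels under TSA, and HAT1 rose 1.96-fold. EP300, the paralogue of CREBBP, had a mean of 84.3 unique molecular identifiers (UMIs, which count captured transcripts) per 1000000 (CPM) in DMSO and 85.6 in TSA. Both means are after the scaling described below. E6R changed none of the 10 genes beyond the test's threshold. CREBBP and KAT2A were higher under E6R than under TSA. These calls under TSA took in 3 of the 10 genes, close to the 29.7% of all genes called in that comparison. The promoter sequences of the 3 genes called under TSA are shown first. Each is the stretch of 250 bases just before a RefSeq transcript start in GRCh38.p14, read 5′ to 3′ on the gene's strand, and for CREBBP the more upstream of 2 starts was taken. The windows are chr16:3880714-3880963 (minus strand) for CREBBP, chr17:42121368-42121617 (minus strand) for KAT2A and chr2:171922211-171922460 (plus strand) for HAT1. Capitals mark matches on either strand to 4 motifs. The GC box was searched as GGGCGG. The core of the cAMP response element was searched as TGACG. An ETS site was searched as CCGGAAG. The CCAAT box was searched by the letters of its name. Of 2 further motifs, the E-box CACGTG had no match in these windows. An E2F-like site, TTTGGCGC, had none either.
CREBBP: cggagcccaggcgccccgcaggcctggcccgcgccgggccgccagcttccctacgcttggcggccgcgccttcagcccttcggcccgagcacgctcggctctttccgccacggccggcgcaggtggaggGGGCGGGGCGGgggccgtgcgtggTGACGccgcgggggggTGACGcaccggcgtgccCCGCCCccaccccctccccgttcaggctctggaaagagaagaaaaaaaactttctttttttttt
KAT2A: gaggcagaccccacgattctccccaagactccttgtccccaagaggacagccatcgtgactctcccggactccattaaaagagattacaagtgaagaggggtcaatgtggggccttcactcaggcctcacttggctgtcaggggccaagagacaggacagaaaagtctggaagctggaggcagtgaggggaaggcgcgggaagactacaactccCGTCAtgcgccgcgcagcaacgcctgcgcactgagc
HAT1: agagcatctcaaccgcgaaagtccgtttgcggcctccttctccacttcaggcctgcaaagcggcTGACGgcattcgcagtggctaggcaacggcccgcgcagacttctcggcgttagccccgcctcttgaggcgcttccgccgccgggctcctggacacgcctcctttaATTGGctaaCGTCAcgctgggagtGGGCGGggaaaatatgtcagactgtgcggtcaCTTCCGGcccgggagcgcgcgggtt
The CREBBP window held 3 GC boxes, of which 2 overlap by 1 base, and 2 response element cores. The window before the other CREBBP start, chr16:3880121-3880370, held 4 GC boxes and no such core, with 84% G or C. KAT2A held 1 core and no GC box. HAT1 held 2 cores, 1 GC box, 1 ETS site and 1 CCAAT box. Of 35116 RefSeq windows of the same length, 42.6% held a GC box, 21.2% a response element core, 8.52% an ETS site and 32.0% a CCAAT box. The core was also in the windows of KAT5 and KAT7, whose genes were not called under TSA. The base composition differed, with 72.4% G or C in the CREBBP window, 58.8% in KAT2A and 64.0% in HAT1.

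The 6 libraries held 17589 cells with at least 500 genes and at most 20% of UMIs from mitochondrial genes. UMIs were summed over the cells of a library, giving 4206366 to 26180262 UMIs per library, and the DMSO libraries were the smallest. Mitochondrial genes took 5.83% and 6.20% of the sum in DMSO, 6.08% and 9.71% in TSA, and 1.55% and 1.51% in E6R. Of the adrenergic markers, HAND2 stood at 197 to 355 CPM, GATA3 at 112 to 170 and DBH at 158 to 1145 over the 6 libraries. Summed levels of 8 mesenchymal markers were 827 to 1337 in DMSO, 1909 to 3050 in TSA and 1336 to 2067 in E6R. VIM was the largest part, at 977 and 696 CPM in DMSO and 2840 and 1760 in TSA after the scaling described below. The means of FN1, COL1A1, YAP1 and NOTCH2 were also higher in TSA than in DMSO, and those of CD44, COL1A2 and PRRX1 lower. FN1 differed between replicates, at 114 and 19.3 CPM in DMSO and 200 and 13.1 in E6R. The 4 leukocyte markers summed to 0.225 to 1.33, with CD3E at 0 in 5 of 6 libraries. The 4 Schwann cell markers summed to 4.51 to 16.5, with SOX10 at 0 in 4 of 6. The 4 endothelial and epithelial markers summed to 67.3 to 97.7 in DMSO and E6R and to 11.9 to 19.1 in TSA. The part of these shifts in the results below was not tested. Any pair of libraries shared 11 to 58 cell barcodes.

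Levels are given below as CPM after TMM scaling of the library sum. Differences are log2 fold changes from edgeR's quasi-likelihood test over 16763 genes, with standard errors (SE) and Benjamini-Hochberg adjusted p, and a gene was called at an adjusted p under 0.05. Of all genes, 29.7% were called for TSA against DMSO (2720 higher, 2255 lower; 1717 and 3361 with library totals in place of TMM factors). Of the 10 acetyltransferase genes 3 were called, 1 higher (16.2% of all genes) and 2 lower (13.5%), so the share of members called was close to that of all genes. Their median log2 fold change was -0.04, against -0.01 over all genes tested. The summed level of the 10 genes was 504 ± 32.6 CPM in DMSO, 460 ± 58.7 in TSA and 471 ± 76.6 in E6R (SD, n = 2). The 3 ranges overlapped, but only with TMM scaling was TSA among the others. In cells thinned at random to 1000 UMIs each, without TMM scaling, the 10 genes summed to 0.579 and 0.521 UMIs per cell in DMSO. The sums were 0.406 and 0.413 in TSA, the lowest, and 0.516 and 0.515 in E6R.

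**Figure D1:**
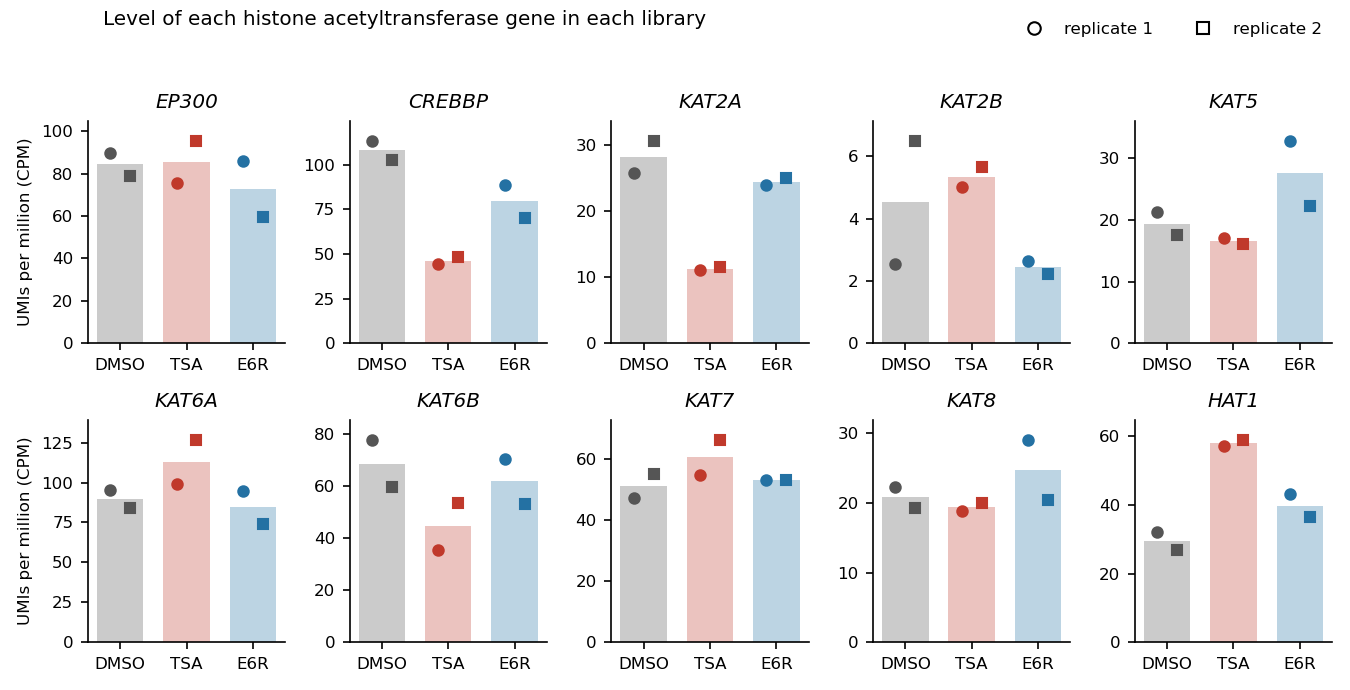
Level of each gene in CPM (UMIs per 1000000 of the library sum, TMM-scaled) in the DMSO, TSA and E6R libraries. Points are libraries (circle, replicate 1; square, replicate 2), bars are group means, and each panel has its own axis from 0. The TSA points of CREBBP lie at 44.4 and 48.1, below all 4 other libraries, and those of HAT1 at 57.1 and 58.9, above all 4.

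Of the p300/CBP pair, CREBBP (chr16:3725054-3880726, minus strand) had 113 and 103 CPM in the DMSO libraries, 44.4 and 48.1 in the TSA libraries and 88.6 and 70.3 in the E6R libraries. The TSA libraries lay below the rest and the E6R libraries fell between TSA and DMSO, with no overlap between any groups. Against DMSO, CREBBP fell by 1.23 on the log2 scale under TSA (SE 0.20, adjusted p = 0.0045, edgeR), from 108 ± 7.60 to 46.2 ± 2.62 CPM (SD, n = 2). Its counts were 534 and 537 UMIs in DMSO and 584 and 552 in TSA, from TSA sums that were larger. EP300 (chr22:41091786-41180079, plus strand) had 89.7 and 79.0 CPM in DMSO, 75.7 and 95.5 in TSA, and 86.1 and 59.3 in E6R. These 3 ranges overlapped, and the TSA difference was 0.02 (95% interval -0.53 to 0.58, adjusted p = 0.956). Its sign depended on the processing, being lower in 11 and higher in 8 of 19 alternatives (-0.30 to 0.21). Without TMM scaling EP300 stood at 100 and 86.2 CPM in DMSO and at 69.8 and 82.4 in TSA. The intervals of the paralogues under TSA, -1.69 to -0.76 for CREBBP and -0.53 to 0.58 for EP300, did not meet.

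The ratio of UMIs of CREBBP to EP300 within a library needs no scaling between libraries. It is not corrected for transcript length, so it is read across libraries only. The log2 ratio was 0.34 and 0.38 in DMSO, -0.77 and -0.99 in TSA, and 0.04 and 0.25 in E6R. The TSA mean lay 1.24 below the DMSO mean, a gap well beyond the SD within the groups (0.028 in DMSO and 0.155 in TSA, n = 2). An exact two-sided permutation test with 2 libraries against 2 cannot go below p = 0.333, the value it gave here. Barcodes with fewer than 300 genes, which the cell filter left out, gave TSA ratios below those of the other libraries too. Their log2 ratio was 0.23 and 0.34 in DMSO, -0.60 and -0.90 in TSA, and -0.30 and 0.40 in E6R.

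**Figure D2:**
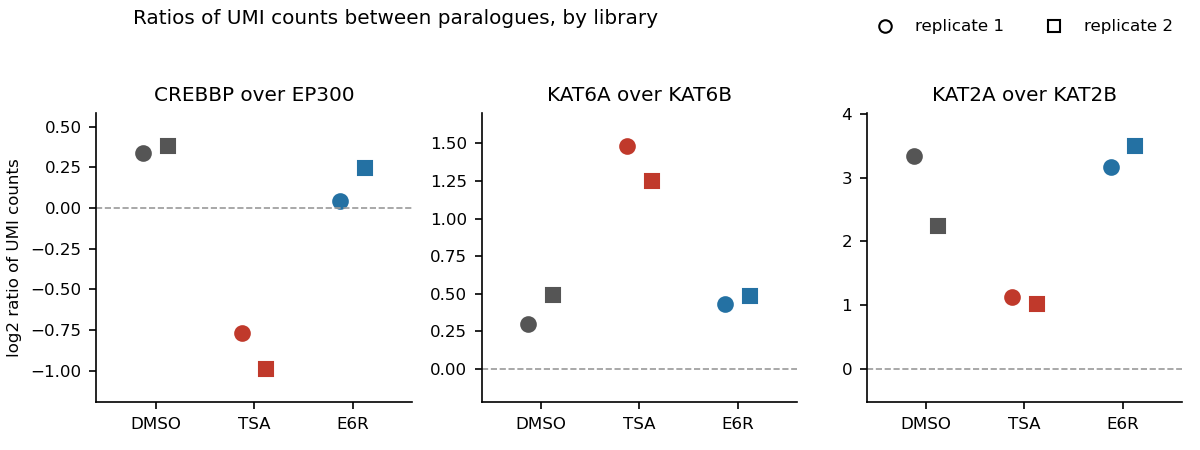
Log2 ratio of UMI counts between paralogues in each library, by treatment (circle, replicate 1; square, replicate 2; the dashed line marks equal counts). CREBBP over EP300 and KAT2A over KAT2B are lowest in the TSA libraries, and KAT6A over KAT6B is highest there, at 1.48 and 1.25.

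In the GNAT pair, KAT2A (GCN5, chr17:42113108-42121358, minus strand) had 25.7 and 30.6 CPM in DMSO, 11.0 and 11.5 in TSA, and 23.9 and 24.9 in E6R. The TSA libraries were the 2 lowest and nearly equal. KAT2A fell by 1.32 on the log2 scale under TSA (SE 0.24, adjusted p = 0.0063, edgeR), the largest fall among the 10. KAT2B (PCAF, chr3:20040023-20154404, plus strand) was rare, with 2.55 and 6.50 CPM in DMSO, 5.01 and 5.66 in TSA, and 2.65 and 2.22 in E6R. The DMSO values rest on 12 and 34 UMIs and enclose both TSA values, and the TSA difference of 0.23 had an interval of -0.94 to 1.40. The log2 ratio of KAT2A to KAT2B was 3.33 and 2.23 in DMSO, 1.14 and 1.02 in TSA, and 3.17 and 3.49 in E6R, and the TSA libraries lay below the other 4. In barcodes with fewer than 300 genes it was 3.62 and 2.12 in DMSO, 0.92 and 0.58 in TSA, and 3.09 and 4.43 in E6R, again lowest in TSA.

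HAT1 (chr2:171922448-171983682, plus strand) had 32.1 and 27.0 CPM in DMSO, 57.1 and 58.9 in TSA, and 43.2 and 36.4 in E6R. Every TSA library was above every E6R library, and every E6R library above every DMSO library. HAT1 rose by 0.97 on the log2 scale under TSA (SE 0.21, adjusted p = 0.0128, edgeR), and it was the only member called higher. It was not called with library totals in place of TMM factors (0.66, adjusted p = 0.0544), nor without DMSO replicate 2 (0.78, adjusted p = 0.108). All 10 genes overlap another annotated gene in GENCODE 29, and the labels do not state whether counting used strand, so reads of overlapping genes cannot be told apart. HAT1 overlaps SLC25A12, on the other strand. SLC25A12 had 8.29 and 7.65 CPM in DMSO and 5.01 and 4.70 in TSA. Whether reads of SLC25A12 were counted for HAT1 was not tested.

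All 3 calls under TSA rested on having both TSA libraries in the fit. With 1 TSA library left out, the fold changes of CREBBP (-1.14 and -1.24), KAT2A (-1.26 and -1.31) and HAT1 (1.02 and 0.99) stayed in place while the adjusted p rose to between 0.0501 and 0.0831. In such a fit the lone TSA library is assumed to vary like the other groups. The deposited matrix of TSA replicate 2 carries the extra word reWTA, whose meaning the labels do not give. CREBBP and KAT2A were called under the other 17 alternatives, HAT1 under 15.

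Of the MYST family none of the 5 genes was called for TSA against DMSO. KAT6B (MORF, chr10:74824927-75032624, plus strand) came nearest, with 77.5 and 59.5 CPM in DMSO, 35.6 and 53.3 in TSA, and 70.3 and 53.0 in E6R. Both TSA libraries were below both DMSO libraries, but the upper of them reached the lower E6R library. Its difference under TSA was -0.63 (SE 0.27, adjusted p = 0.118, edgeR), and it was called with library totals only (-0.95, adjusted p = 0.0302) and without a low-count filter (-0.72, adjusted p = 0.0388). Its paralogue KAT6A (MOZ) had 95.4 and 83.8 CPM in DMSO, 99.1 and 126.6 in TSA, and 94.8 and 74.3 in E6R, with a TSA difference of 0.33 (adjusted p = 0.277). The log2 ratio of KAT6A to KAT6B was 0.30 and 0.49 in DMSO, 1.48 and 1.25 in TSA, and 0.43 and 0.49 in E6R. The TSA mean ratio lay 0.97 above that of DMSO, more than the SD within the groups (0.138 and 0.163), with an exact permutation p of 0.333, the smallest this design allows. In barcodes with fewer than 300 genes the log2 ratio was -0.51 and 0.87 in DMSO, 0.83 and 0.64 in TSA, and 0.12 and 0.30 in E6R. There DMSO replicate 2 lay above both TSA libraries, so the groups overlapped.

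KAT5 (TIP60, chr11:65711996-65719604, plus strand), the catalytic subunit of NuA4, had 21.2 and 17.6 CPM in DMSO, 17.0 and 16.1 in TSA, and 32.9 and 22.3 in E6R. The TSA libraries were lowest and the E6R libraries highest, and the TSA difference was -0.23 (adjusted p = 0.560). KAT7 (HBO1, chr17:49788555-49835030, plus strand), which acetylates histone H3 at replication origins and genes, had 47.4 and 55.3 CPM in DMSO, 55.0 and 66.3 in TSA and 53.3 and 53.2 in E6R. KAT8 (MOF, chr16:31115754-31131393, plus strand), the enzyme for lysine 16 of histone H4, had 22.3 and 19.3 CPM in DMSO, 18.8 and 19.9 in TSA, and 29.0 and 20.4 in E6R. The DMSO and TSA libraries overlapped for KAT7 and KAT8, whose TSA differences were 0.24 (interval -0.22 to 0.71) and -0.10 (interval -0.71 to 0.51). KAT5 overlaps RNASEH2C and KAT7 overlaps FAM117A, both on the other strand.

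Groups that did not overlap were counted beside the tests. For TSA against DMSO, 2 members (HAT1 and KAT6A) had both TSA libraries above both DMSO libraries and 4 (CREBBP, KAT2A, KAT5 and KAT6B) had them below. Over all genes tested, 36.7% were apart upward and 34.6% downward, so 6 of 10 apart lies below the 71.3% of all genes that were.

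**Figure D3:**
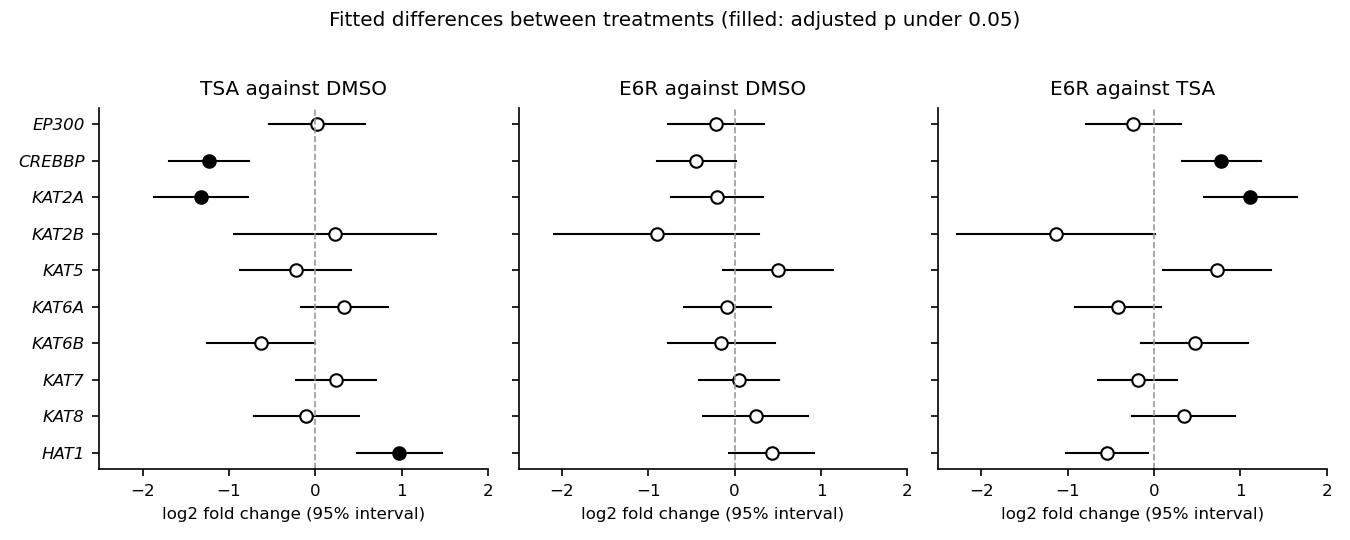
Log2 fold change of each gene in 3 comparisons, with its 95% interval from the edgeR fit. Filled points have an adjusted p under 0.05. CREBBP (-1.23), KAT2A (-1.32) and HAT1 (0.97) are filled for TSA against DMSO, no gene is filled for E6R against DMSO, and CREBBP (0.78) and KAT2A (1.12) are filled for E6R against TSA.

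E6R against DMSO gave no call among the 10 genes and none over all 16763 genes (0%, edgeR). At an unadjusted p under 0.05 there were 0 members and 17.4% of all genes, and DESeq2 called 361 genes (2.15%), none of them a member. The smallest unadjusted p among the members was 0.0546, for CREBBP, with a difference of -0.44 (interval -0.90 to 0.01, adjusted p = 0.297, edgeR). HAT1 differed by 0.43 (interval -0.06 to 0.92) and KAT5 by 0.50 (interval -0.13 to 1.14). For KAT2A the difference was -0.21 (interval -0.74 to 0.33), for EP300 -0.22 (interval -0.77 to 0.34) and for KAT2B -0.90 (interval -2.09 to 0.29). In cells thinned to 1000 UMIs the difference was smaller for CREBBP (-0.21), HAT1 (0.19) and KAT5 (-0.02), none of them called. The KAT2B difference was -0.03 without DMSO replicate 2. KAT6A, KAT6B, KAT7 and KAT8 lay between -0.15 and 0.25. The intervals therefore left room for a fall of CREBBP of up to 0.90 on the log2 scale, and a missed threshold does not show equal levels. The median of the members was -0.12, against 0.03 over all genes. Both E6R libraries were above both DMSO libraries for 2 members (HAT1 and KAT5) and below them for 2 (CREBBP and KAT2A), where 24.6% and 22.7% of all genes were apart in these directions. Without mitochondrial and ribosomal protein genes in the library size the count of members called stayed at 0.

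Between the 2 compounds, 38.2% of all genes were called and 2 members, both higher under E6R (18.7% of all genes were higher). E6R and TSA were each also compared with the same DMSO libraries, so the 3 comparisons share libraries. CREBBP was 1.72-fold higher under E6R than under TSA (log2 0.78, SE 0.20, adjusted p = 0.0168) and KAT2A 2.17-fold higher (log2 1.12, SE 0.23, adjusted p = 0.0078). Both lost the call when 1 TSA library was left out, with CREBBP at 0.73 and 0.84 (adjusted p = 0.120 and 0.0950) and KAT2A at 1.09 and 1.15 (adjusted p = 0.0660 and 0.0652). KAT5 differed by 0.73 (SE 0.27, adjusted p = 0.0649) and was called under 6 of 19 alternatives, DESeq2 among them (adjusted p = 0.0465). It was 0.38 with cells thinned to 1000 UMIs (adjusted p = 0.386) and 0.55 without the 5% of cells with most UMIs (adjusted p = 0.190). HAT1 differed by -0.54 (adjusted p = 0.0700) and was called with cells thinned to equal depth (-0.75, adjusted p = 0.0428). KAT2B differed by -1.13 (adjusted p = 0.108), and was called with library sums thinned to the smallest (-2.22, adjusted p = 0.0269). KAT6A differed by -0.42 (adjusted p = 0.163). Both E6R libraries were above both TSA libraries for 4 members (CREBBP, KAT2A, KAT5 and KAT8) and below them for 4 (KAT2B, KAT6A, KAT7 and HAT1), where 33.7% and 38.9% of all genes were apart in these directions. For EP300 the difference was -0.24 (interval -0.79 to 0.31), and for KAT6B 0.47 (interval -0.15 to 1.09). The labels do not state whether the doses of the compounds were matched.

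Cells were also thinned at random to 1000 UMIs each, leaving out 5652 of the 17589 cells that held fewer, so that shares of cells with a UMI could be compared across depths. In thinned cells CREBBP was detected in 11.2% and 9.93% of cells in DMSO, 4.48% and 3.33% in TSA, and 9.19% and 9.16% in E6R. The Wilson 95% intervals of the TSA libraries, 3.63% to 5.52% and 2.73% to 4.07%, lay below those of all other libraries, and these intervals cover counting error only. EP300 was detected in 9.01% and 8.26% of DMSO cells, 7.18% and 7.21% of TSA cells, and 8.37% and 8.39% of E6R cells, with intervals that overlapped between groups. KAT2A was detected in 3.29% and 3.15% of DMSO cells, 0.972% and 1.0% of TSA cells, and 2.36% and 2.78% of E6R cells. HAT1 was detected in 2.95% and 2.79% of DMSO cells, 4.97% and 4.27% of TSA cells, and 3.55% and 3.05% of E6R cells. CREBBP and KAT2A were detected in fewer TSA cells than in any other library, beyond the counting intervals. The shares of HAT1 were highest in TSA, but the intervals of TSA replicate 2 (3.58% to 5.08%) and DMSO replicate 1 (2.13% to 4.07%) overlapped. In cells at full depth CREBBP was detected in 13.2% to 20.2% of DMSO cells and 11.2% to 15.6% of TSA cells, where the median cell held 1053.5 to 1268 and 1728 to 1876 UMIs. No cell type that should lack these genes is present in a single line, so no background share from free RNA can be given.

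Barcodes with fewer than 300 genes, which hold few UMIs each, had CREBBP at 108 and 118 CPM in DMSO and 45.0 and 41.0 in TSA without TMM scaling. KAT2A stood there at 23.2 and 30.7 in DMSO and 8.50 and 7.59 in TSA, and HAT1 at 30.7 and 27.2 in DMSO and 35.5 and 41.5 in TSA. The small barcodes thus showed the same order for CREBBP and KAT2A. Without TMM scaling HAT1 in cells stood at 35.9 and 29.4 CPM in DMSO and 52.7 and 50.8 in TSA. On that same scale its gap was smaller in the small barcodes. Of thinned cells, 57.5% to 62.1% in DMSO, 67.7% to 68.3% in TSA and 61.0% to 62.1% in E6R had no UMI of any of the 10 genes. At most 4 of the 10 were seen in 1 cell.

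Acetyltransferases act on histones during DNA replication and mitosis, so the levels were compared between cells within each library. Thinned cells were ranked by their UMIs of 39 DNA replication genes or of 41 mitosis genes, and the highest and lowest classes of each library, of equal size, were summed and tested with the library as a block. The classes held 395 to 929 cells, and 111 to 466 cells of a library stood exactly at the upper limit of the replication score, so the classes are ranges of a score rather than cell types. For replication, 4.52% of 8324 genes were called and none of the 9 members tested. KAT2B was too rare to pass the low-count filter. At an unadjusted p under 0.05 there were 2 members, HAT1 and KAT6B, against 16% of all genes. HAT1 was higher in replication-high cells of 6 of 6 libraries, by 0.42 (SE 0.18, adjusted p = 0.199, edgeR), and by 0.75 in cells thinned to 2000 UMIs, where it was called (adjusted p = 0.0059). In E6R replicate 2 the log2 ratio of CPM + 1 was only 0.04, from 23 UMIs in low and 24 in high cells. DMSO replicate 1 held 6 and 11 UMIs. The share of all genes higher in every library is not given here. KAT6B was lower in 5 of 6, by -0.46 (SE 0.16, adjusted p = 0.0936), and was called without DMSO replicate 2 (-0.57), without TSA replicate 2 (-0.55) and without both TSA libraries (-0.58).

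For mitosis, 7.47% of 8316 genes were called and again none of the 9 members. CREBBP had the smallest p, with a difference of 0.29 (SE 0.14, adjusted p = 0.230, edgeR), higher in 4 of 6 libraries. It was the only member at an unadjusted p under 0.05, against 19.4% of all genes. HAT1 differed by 0.37 (adjusted p = 0.303) and EP300 by -0.03 (interval -0.27 to 0.21). Tests of whether these differences varied between treatments called 0 of 54 (smallest adjusted p = 0.893), with 1 at an unadjusted p under 0.05. Of the partner genes described below, 3 of 83 were called for replication (NASP, RBBP7 and ESCO2, all higher) and 6 of 84 for mitosis (NASP, ASF1B, BRD8, ESCO2 and ANP32B higher, TAF10 lower), shares of 3.61% and 7.14%. NASP, a chaperone of histones H3 and H4, was called in both, at 0.40 in replication-high (adjusted p = 0.0075, edgeR) and 0.65 in mitosis-high cells (adjusted p = 3.1e-05).

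**Figure D4:**
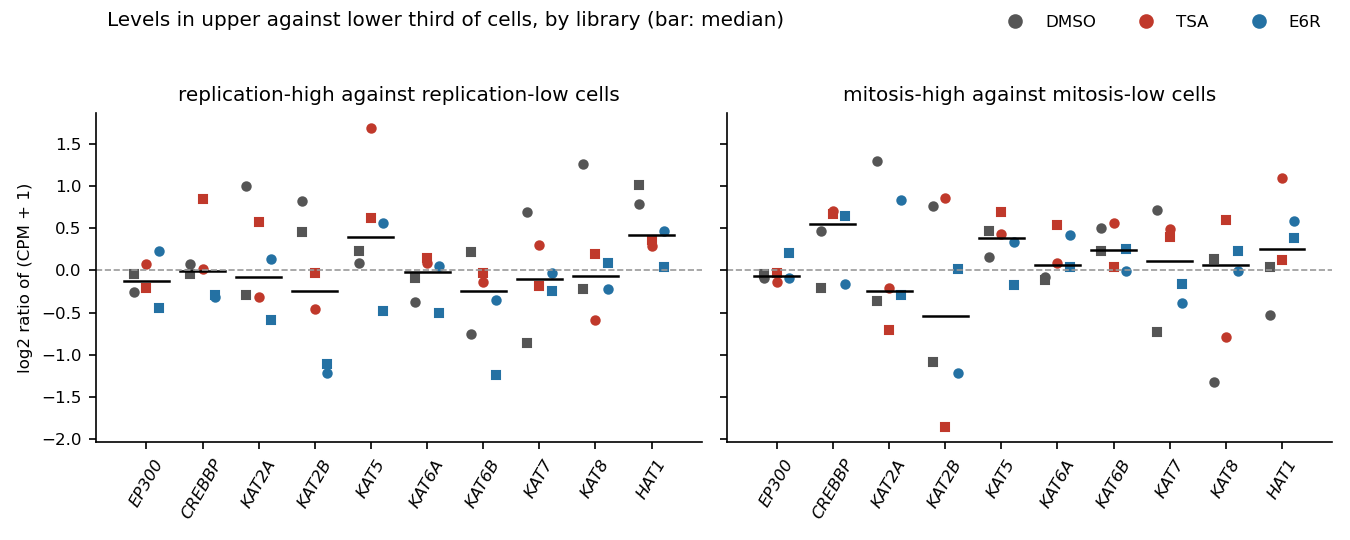
Log2 ratio of CPM + 1 between the cells with the highest and the lowest replication score (left) and mitosis score (right), for each gene and library (colour, treatment; circle, replicate 1; square, replicate 2; bar, median of 6 libraries). All 6 points of HAT1 are above 0 for replication, with a median of 0.42 and the lowest at 0.04 in E6R replicate 2, and no gene had an adjusted p under 0.05.

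The enzymes work with partners, and 97 genes in 9 lists of complex subunits, cofactors and related enzymes were tested with them. The lists were set by function, but with earlier results of these data known. The shares of list genes called may therefore not be independent of the data. For TSA against DMSO, 40 of 96 tested genes were called (41.7%, against 29.7% of all genes), 17 higher and 23 lower, and the median was -0.02 against -0.01 over all genes. The count dropped to 22 and 21 without DMSO replicate 1 or 2, fits in which 14% and 15% of all genes were called. It dropped to 17 and 14 without TSA replicate 1 or 2, where 9.84% and 7.79% of all genes were called. ASF1B (1.48), BRPF1 (1.43), TAF10 (1.42), TAF12 (1.36), TADA3 (1.29) and ESCO2 (1.24) had the largest log2 rises among called genes that averaged at least 20 CPM and whose groups did not overlap, the rule for named genes. ANP32B (-3.66), EPC1 (-2.78), JADE1 (-2.25), MSL1 (-2.21), TAF9B (-2.19) and CLOCK (-1.93) had the largest falls by the same rule.

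All 3 genes of the list of acetyltransferase inhibitors were called lower under TSA, against 13.5% of all genes. The proteins of this list bind histones and mask them from acetylation. ANP32A and SET are outside the rule for named genes and were added after the values were seen. ANP32B went from 616 and 628 CPM in DMSO to 49.4 and 49.2 in TSA, and stood at 542 and 746 in E6R. SET, which forms the inhibitor complex with ANP32A, went from 968 and 859 to 337 and 311 CPM under TSA, and stood at 1191 and 1259 in E6R. ANP32A differed by -1.65 under TSA (SE 0.28, adjusted p = 0.0050, edgeR), SET by -1.50 (SE 0.20, adjusted p = 0.0022). Their list median was -1.65. In all 3 both TSA libraries were below both DMSO libraries, as in 34.6% of all genes. They were also below both E6R libraries, as in 33.7% of all genes. The share of all genes that met both conditions is not given here.

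The MYST enzymes were not called, and the shares of subunits called in their complexes are to be read against the 29.7% of all genes. They were 37.5% for NuA4/TIP60, 55.6% for MOZ/MORF and HBO1, and 36.4% for MSL and NSL, each a list of 16 genes or fewer. Among 16 NuA4/TIP60 subunits (median 0.43) 4 were higher (DMAP1, ACTL6A, BRD8 and RUVBL2) and 2 lower (EPC1 and EPC2), with EPC1, the scaffold that holds KAT5, at 28.9 and 33.1 CPM in DMSO and 5.01 and 4.01 in TSA. Of 9 MOZ/MORF and HBO1 subunits (median -0.36), 1 was higher (BRPF1) and 4 lower (JADE1, JADE2, BRPF3 and BRD1). JADE1, a scaffold of HBO1, fell from 51.4 and 66.4 CPM to 14.1 and 10.7. BRPF1, the scaffold of MOZ and MORF, rose from 19.3 and 12.8 to 38.4 and 48.1. Of 11 MSL and NSL subunits (median -0.03) 4 were lower (MCRS1, MSL1, KANSL1 and HCFC1) and none higher. MSL1, the scaffold for KAT8 in the MSL complex, fell from 157 and 140 CPM to 29.2 and 34.7. Genes named here only as members of a count are outside the rule for named genes.

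Of 23 SAGA and ATAC subunits, the complexes of KAT2A, 4 were higher (TAF12, DR1, TADA3 and TAF10) and 3 lower (ATXN7, USP22 and TAF9B) under TSA, with a median of -0.11. The 7 called are 30.4% of the list, close to the 29.7% of all genes. TAF10, a subunit of both SAGA and TFIID, rose from 44.8 and 62.7 CPM to 152 and 136. TAF9B, a paralogue of TAF9, fell from 26.1 and 24.5 to 4.94 and 6.18. Of 11 p300/CBP cofactors 2 were higher (CITED2 and CITED4, both at under 10 CPM in every library) and 4 lower (CREB1, NCOA2, CRTC3 and CARM1), and their median was -0.53. CREB1, the transcription factor after which CREBBP is named, was among the lower ones at -0.75 (SE 0.20, adjusted p = 0.0242, edgeR). Of 6 HAT1 partners and H3-H4 chaperones (median 0.20) only ASF1B was called, and RBBP7, the partner subunit of HAT1, differed by 0.25 (adjusted p = 0.336). Of 5 tested genes of acetyl-CoA supply 2 were higher, ACSS2 (1.09) and PDHA1 (0.65), with a median of 0.57. Of 12 other acetyltransferases (median 0.18) 3 were higher (ESCO2, ELP3 and NAT10) and 3 lower (CLOCK, NAA60 and TAF1). The shares called were 54.5% of the cofactors, 16.7% of the HAT1 partner list, 40% of acetyl-CoA supply and 50% of the other acetyltransferases. They are to be read against the 29.7% of all genes, and each of these lists held 12 genes or fewer.

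**Figure D5:**
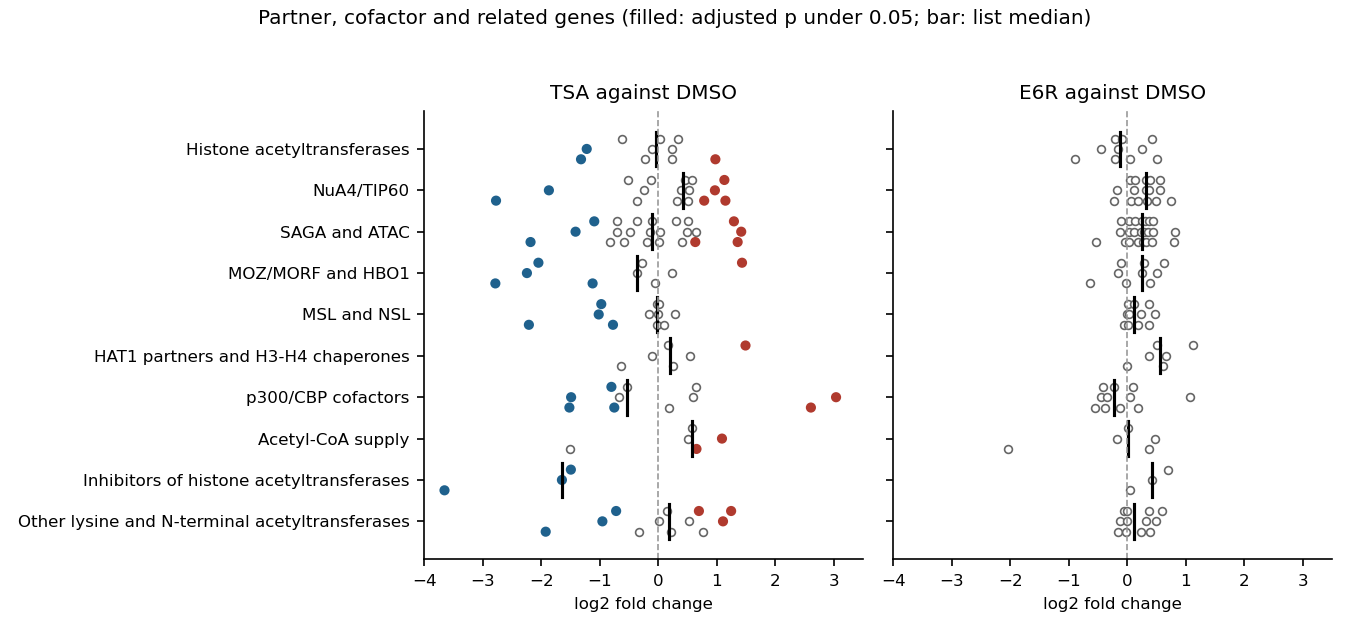
Log2 fold change of every tested gene of the 10 acetyltransferases and of the 9 lists, for TSA (left) and E6R (right) against DMSO. Filled points have an adjusted p under 0.05 (red higher, blue lower), and black bars are list medians. The 3 inhibitor genes are filled on the left with a median of -1.65, and no point is filled on the right.

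For E6R against DMSO, edgeR called 0 of the 96 genes, as it did of all genes. At an unadjusted p under 0.05 there were 11 (11.5%, against 17.4% of all genes), and DESeq2 called 2 (2.08%, against 2.15% of all genes). The median was 0.19 against 0.03 over all genes, and 69 of 96 had a positive difference. RBBP4, a histone chaperone, had the smallest p and stood at 47.0 and 41.1 CPM in DMSO, 46.8 and 51.5 in TSA, and 105 and 86.9 in E6R, a difference of 1.12 (adjusted p = 0.205, edgeR). ACTL6A, an actin-related subunit of NuA4, had 58.4 and 61.2 CPM in DMSO, 123 and 139 in TSA and 100 and 101 in E6R, a difference of 0.75 (adjusted p = 0.205). RBBP7 had 124 and 126 CPM in DMSO and 200 and 183 in E6R, a difference of 0.61 (adjusted p = 0.215). Both E6R libraries were above both DMSO libraries for these 3 genes, as were those of 24.6% of all genes. The 3 were picked by small p, which favours such separation, so it adds nothing to the tests. The 3 with the smallest p below 0 were BRPF3 (-0.65), CRTC1 (-0.56) and ACSS1 (-2.04, at a mean of 0.632 CPM), with adjusted p of 0.291 to 0.303.

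For E6R against TSA, 45 of the 96 genes were called (46.9%, against 38.2% of all genes), 31 higher and 14 lower. The count was 21 and 20 without TSA replicate 1 or 2, fits in which 17.7% and 14.4% of all genes were called. ANP32B (3.71), EPC1 (2.90), TAF9B (2.55), ANP32A (2.35), MSL1 (2.32) and JADE1 (2.14) had the largest log2 rises among called genes that averaged at least 20 CPM and whose groups did not overlap. ASF1B (-1.47), BRPF1 (-1.46), TAF10 (-1.39), DMAP1 (-1.19), TADA3 (-1.18) and TAF12 (-1.17) had the largest falls by the same rule. Of the genes outside it, JADE2 (2.62) and BRD1 (2.44) rose and CITED4 (-3.48) and CITED2 (-2.57) fell by more than some of those named. RBBP4 and NASP of the HAT1 partner list were higher under E6R than under TSA, by 0.97 (adjusted p = 0.0071, edgeR) and 1.15 (adjusted p = 0.0080).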

How the data were processed

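The 6 deposited matrices held UMI counts per gene and barcode, which the authors did not normalize. STARsolo 2.7.9a and GRCh38 are named in the submitters' processing notes, and no source used here states the annotation or strand rule. Coordinates come from GENCODE 29 on GRCh38, which held 94.6% of the deposited gene identifiers, and promoters from RefSeq (GRCh38.p14). Barcodes with 500 or more genes and at most 20% mitochondrial UMIs were kept, no doublet caller was run, and UMIs were summed per library, to 4206366 UMIs at least, where 3 UMIs equal 0.713 CPM. Sums were tested with edgeR 4.0.16 (R 4.3.3; TMM, filterByExpr, quasi-likelihood, group as the term, 6 libraries in 1 fit, Benjamini-Hochberg at 0.05), after the script was tested on simulated data. The common biological coefficient of variation was 0.288. DESeq2 1.42.0, other scalings, filters, thinning and leaving out each library were alternatives. Shares have Wilson intervals.

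The members and the lists were chosen with earlier results of these data known. All 10 members are named. From the lists, the rule names the 6 largest rises and falls among called genes that averaged at least 20 CPM without group overlap. With no call, it names the 3 smallest p in each direction. Further list genes given with values, among them CREB1, ACSS2, PDHA1 and NASP, are outside this rule. So are RBBP7 for TSA against DMSO and RBBP4 for E6R against TSA. All list genes were found, 1 of them by gene identifier.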

Additional observations from a re-analysis of the deposited data

Results flagged for a closer look

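Over the 6 libraries, the ratio of CREBBP between replication-high and replication-low cells was 0.85 (log2 of CPM + 1) in TSA replicate 2, far above the other 5, which lay at 0.07 or below. The ratio of EP300 between mitosis-high and mitosis-low cells was 0.20 in E6R replicate 2, where the other 5 were below 0. These rest on sums over thinned cells with few UMIs of each gene. The 6 libraries come from 3 treatments, 18 such sets of 6 were looked at, and chance alone sets apart about 1 in 20.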

How the results depend on the processing

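Fold changes of the members and named genes were recomputed under the alternatives, 1371 values in all. None of those called changed sign, and 70 values that were called in neither fit did. For TSA against DMSO the count of 3 members called ranged from 0 to 3 when 1 library was left out, the 0 coming without TSA replicate 1 or 2. For E6R against DMSO it was 0 throughout. For E6R against TSA the count of 2 became 4 with no low-count filter, where KAT5 and KAT6B joined, and ranged from 0 to 3 with 1 library left out. In replication-high against replication-low cells the count of 0 became 1 in cells thinned to 2000 UMIs and 1 without the TSA libraries, and ranged from 0 to 1 with 1 library left out. In mitosis-high against mitosis-low cells it was 0 throughout. The cause was not tested.

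Library totals in place of TMM factors moved the median of all genes for TSA against DMSO from -0.01 to -0.32 and the calls from 2720 higher and 2255 lower to 1717 and 3361. For E6R against DMSO over all genes the count of 0 became 361 under DESeq2 and 1095 with no low-count filter. With the replicate number as a block, the count of members called was 3, 0 and 3 for TSA against DMSO, E6R against DMSO and E6R against TSA, the third call being KAT5 (0.71, adjusted p = 0.0396, edgeR), and 19 genes in all were called for E6R against DMSO. Deviations of same-numbered libraries correlated at 0.243 (DMSO and TSA), 0.559 (DMSO and E6R) and 0.164 (TSA and E6R) across 7515 genes, and the labels give the numbers no other meaning. All 30 shares of cells moved by more than 1 SD without thinning. KAT2B, at 12 to 66 UMIs per library, is limited by depth.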
